A study of Mus musculus with 4 samples.

Results

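The scattered SMC-only distal regions are stretches of open chromatin, away from promoters, that had a peak in each SMC list, had none in the non-SMC lists, and lay few to a stretch of the genome. They were chosen by the 4 deposited peak lists of the series. On chromosomes 1 to 19 and X, peaks sharing 1 base or more were joined into 357556 regions. A region was kept when both SMC lists and no non-SMC list had a peak in it and when its midpoint was more than 3 kb from the transcription start site (TSS) of every protein-coding gene. Of the 321756 distal regions, 14128 (4.39%) met this call, and the opposite call, a peak in both non-SMC lists and in no SMC list, was met by 24239 (7.53%). The members described here are the 12459 of these SMC-only regions that lay in fixed bins of 100 kb holding at most 3 of them, which is 88.2% of the SMC-only distal regions, 3.87% of all distal regions and 3.48% of all merged regions. Of their 8650 bins, 5621 held 1 member, 2249 held 2 and 780 held 3.

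SMC are the NCAM hi CD44 lo/- cells and non-SMC the NCAM lo CD44 hi cells that were sorted by flow cytometry from lung tumors of Rb1L/L Trp53L/L (RP) mice, a model of small-cell lung cancer (SCLC), and grown as cell lines. All 4 lines carry these floxed alleles of Rb1 and Trp53, deleted in both cell types by adenoviral Cre under the CMV promoter, which is not restricted to one cell type of the lung. They come from a background mixed of C57Bl/6, Balb-c and S129, were untreated and were grown in the same medium, and the age of the tumor-bearing animals is not among the labels. The study reports that SMC grew in suspension as spheres and non-SMC grew attached. Growth form and cell type can therefore not be told apart here. The assay for transposase-accessible chromatin with sequencing (ATAC-seq) gave 1 library and 1 peak list for each of 4 lines, numbered 1 and 2 within a cell type. The submitters describe the cell types as paired, but whether lines of equal number come from the same mouse is not stated, and a line pair here means a shared number only. The lists held 91118 and 154039 peaks for the SMC lines, in the order of their numbers, and 115909 and 128788 for the non-SMC lines. The lowest local background of a list, which grows with the depth of its library, was 0.456 and 1.54 reads for the SMC lines and 1.49 and 0.639 for the non-SMC lines, so each pair held 1 deep and 1 shallow library. At its lowest background a list held peaks from 3 reads upward in SMC line 1 and non-SMC line 2 and from 5 reads in the other lines, and a region without a listed peak is not shown to be closed. As a check of the labels, the promoter of Chga, a granin of secretory vesicles, had 2 and 3 peaks in the SMC lines and 0 in either non-SMC line. Ncam1, the gene of the sorting marker, had 3 and 3 against 3 and 2, and Cd44 had 0 and 2 against 1 and 1. Vim, a mesenchymal gene, had 1 and 3 against 2 and 2, and Wwtr1, the gene of TAZ, 0 and 1 against 3 and 1. Neurod1, a neuronal helix-loop-helix factor, had 0 and 3 against 1 and 1, and Insm1, a neuroendocrine zinc finger factor, 2 and 2 against 2 and 0, so these did not separate the cell types. Of markers of other lung cells, in the order SMC lines 1 and 2, then non-SMC, Scgb1a1 (club cells) had 0 peaks in each list, Sftpc (alveolar cells) 1, 0, 0 and 0, and Foxj1 (ciliated cells) 1, 2, 2 and 1. Ptprc (leukocytes) had 0, 0, 1 and 0, Pecam1 and Cdh5 (endothelium) 0, 0, 1 and 1 and 2, 2, 0 and 1, and the mesenchymal genes Pdgfra 3, 0, 2 and 2, Pdgfrb 0, 1, 2 and 2 and Col1a1 1, 1, 3 and 2. The part of other cell types in the results was not tested. Because all 4 lists chose the members, and because no two-sided exact permutation test of 2 against 2 libraries can go below p = 0.333, the values are given as descriptions with no test.

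Distal open regions include enhancers, short stretches of DNA at which transcription factors displace or remodel nucleosomes and from which genes far away along the chromosome can be switched on. Because enhancers are used by cell type more than promoters are, their sequences carry the recognition sites of the factors that define a cell. Basic helix-loop-helix factors of neural and neuroendocrine cells pair with E proteins such as TCF4 and TCF12 to bind E-boxes, written CANNTG. SOX factors bind the minor groove at ACAAAG or ACAATG, FOXA factors can bind DNA on nucleosomes at TGTTTAC, and NFI factors bind TTGGCA. AP-1, TEAD and RUNX factors are known for the enhancers of adherent, mesenchymal and growth-stimulated cells.

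The sequences of 7 members are shown with the E-boxes CAGGTG and CAGCTG, the SOX letters and the FOX letters (TGTTTAC or TATTTAC) in capitals on either strand. Each is the summit of the region's strongest peak with 100 bases on each side, on the plus strand of GRCm38 (mm10). The first 4 are the members with the highest fold enrichment by rank in both SMC lists, at chr3:125017394-125017594 (nearest gene Ndst4, outside genes), chr10:102762484-102762684 (Rassf9, outside genes), chr8:63460054-63460254 (Sgo2b, outside genes) and chr13:113942080-113942280 (in an intron of Arl15). The other 3 are the strongest members nearest to Sox11, Nfib and Sox4, genes of neural transcription factors, at chr12:27065096-27065296 (outside genes), chr4:82328315-82328515 (in an intron of Nfib) and chr13:28926109-28926309 (outside genes). They were taken by their rank and not for their motifs.
Ndst4 region: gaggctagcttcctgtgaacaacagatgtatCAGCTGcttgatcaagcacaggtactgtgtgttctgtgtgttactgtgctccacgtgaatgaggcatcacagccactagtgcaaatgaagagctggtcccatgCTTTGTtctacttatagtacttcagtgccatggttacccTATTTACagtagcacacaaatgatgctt
Rassf9 region: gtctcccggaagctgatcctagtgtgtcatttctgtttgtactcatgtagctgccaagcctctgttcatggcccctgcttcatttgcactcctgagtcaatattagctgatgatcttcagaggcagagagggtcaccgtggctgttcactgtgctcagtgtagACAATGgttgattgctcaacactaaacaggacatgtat
Sgo2b region: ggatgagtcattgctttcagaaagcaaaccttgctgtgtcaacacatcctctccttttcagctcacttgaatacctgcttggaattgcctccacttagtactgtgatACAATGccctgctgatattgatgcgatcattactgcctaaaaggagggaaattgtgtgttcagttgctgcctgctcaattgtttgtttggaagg
Arl15 region: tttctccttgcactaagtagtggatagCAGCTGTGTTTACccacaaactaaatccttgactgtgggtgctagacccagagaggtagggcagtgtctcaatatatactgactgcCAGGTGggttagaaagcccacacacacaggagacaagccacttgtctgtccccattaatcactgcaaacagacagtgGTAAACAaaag
Sox11 region: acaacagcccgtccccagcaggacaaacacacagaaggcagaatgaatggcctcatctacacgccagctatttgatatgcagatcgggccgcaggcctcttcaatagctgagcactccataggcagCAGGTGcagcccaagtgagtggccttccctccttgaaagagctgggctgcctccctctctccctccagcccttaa
Nfib region: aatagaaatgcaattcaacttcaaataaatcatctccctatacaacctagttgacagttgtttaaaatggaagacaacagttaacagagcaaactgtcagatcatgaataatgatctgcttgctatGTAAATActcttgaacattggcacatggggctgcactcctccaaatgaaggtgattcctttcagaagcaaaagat
Sox4 region: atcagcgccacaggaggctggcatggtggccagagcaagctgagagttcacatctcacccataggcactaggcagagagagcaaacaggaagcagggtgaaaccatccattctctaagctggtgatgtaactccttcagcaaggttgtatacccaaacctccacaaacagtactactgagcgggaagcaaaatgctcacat

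The Ndst4 region held CAGCTG starting 69 bp before the summit, a SOX match 34 bp after it and a FOX match 73 bp after it. The Arl15 region held both E-boxes, with CAGGTG 13 bp after the summit and CAGCTG 73 bp before it, and 2 FOX matches. The first of these FOX matches follows CAGCTG directly. The Rassf9 region held a SOX match 63 bp after the summit and the AP-1 letters TGAGTCA 8 bp before it, and the Sgo2b region a SOX match 7 bp after the summit and TGAGTCA 97 bp before it. Near the neural factors, the Sox11 region held CAGGTG 26 bp after the summit and the Nfib region a FOX match 26 bp after it, while the Sox4 region held none of the 4 motifs in its window. A match is a description of the letters and not a site shown to be bound.

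E-boxes, SOX and FOX letters were more frequent in the members than in distal regions at large, and AP-1 letters were rarer. Shares count windows of 100 bp on each side of the summit with at least 1 match on either strand, with 95% Wilson intervals that cover counting error over regions only. CAGGTG, the letters of E proteins and of ZEB repressors, was in 31.2% of members (30.4 to 32.0) and in 17% of all distal regions, and CAGCTG, another E-box of helix-loop-helix factors, in 21.4% (20.7 to 22.1) and 13.7%. The SOX letters were in 42.8% of members (41.9 to 43.6) and in 27.7% of all distal regions. The FOX letters were in 15.7% of members (15.1 to 16.4) and in 6.47% of all distal regions, a ratio of 1.28 on the log2 scale. AP-1 letters, TGANTCA, were in 7.17% of members (6.73 to 7.63) and in 15.4% of all distal regions. All distal regions include those of the non-SMC lists and those listed in 1 library alone, while each member was in both SMC lists. Regions listed in SMC line 1 alone or SMC line 2 alone were 13.4% and 29.6% of all distal regions. They held AP-1 letters in 5.5% and 6.3%, so a low share was not particular to the members. Their shares were 27.3% and 27.6% for SOX, 14.3% and 13.7% for CAGCTG and 4.99% and 7.6% for FOX. Whether being listed in more than 1 library goes with higher shares was not tested. The shares of the members rest on both SMC libraries. Without SMC line 1 the CAGGTG share was 19.8% and without SMC line 2 it was 20.4%. CAGCTG was at 13.2% without SMC line 1, under the 13.6% of all distal regions, and FOX at 9.45% without SMC line 2.

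In percentage points the other motifs differed less. On the log2 scale the rare NFI palindrome (TTGGC, then 5 bases of any kind, then GCCAA) differed most, by 1.73, with 0.201% of members and 0.0606% of all distal regions. NFI letters were in 17.3% of members and 13% of all distal regions, and NKX2 letters (CACTTGA or CACTTAA, the first of which holds an E-box form, CACTTG) in 8.02% and 5.71%. GATA letters (AGATAA) were in 10.2% and 8.93%, and the homeobox letters TAATTA in 4.58% and 3.62%. CAGATG, the E-box known for NEUROD factors, was in 20.3% and 19.1%, so that this form of the E-box was close to its level in all distal regions. The TEAD letters GGAATG were in 9.47% of members and 12.9% of all distal regions, and RUNX letters (TGTGGT or TGCGGT) in 15.7% and 20.7%. A CTCF motif was in 0.931% of members, close to the 0.842% of all distal regions, while it was in 5.93% of the 4842 distal regions listed in all 4 libraries.

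**Figure D1:**
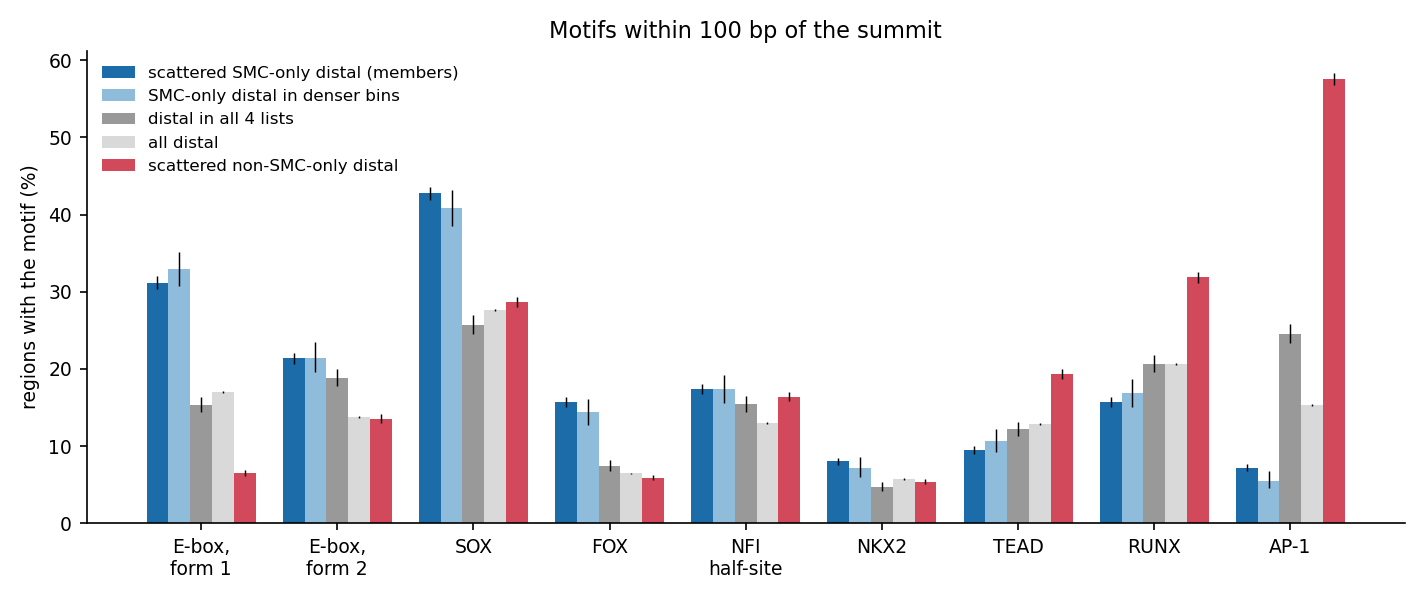
Share of regions (%) with each motif within 100 bp of the summit in 5 classes of regions, as bars with 95% Wilson intervals over regions (E-box form 1 is CAGGTG and form 2 is CAGCTG). The members and the SMC-only regions of denser bins stood close to each other, and the scattered non-SMC-only regions stood far above all others for AP-1, with 57.6%.

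Against the 15901 scattered non-SMC-only distal regions, chosen by the mirrored rule, the members differed most in CAGGTG and AP-1. CAGGTG was in 6.50% of the non-SMC-only regions, below its share in all distal regions, while CAGCTG was there in 13.6%, close to its share in all distal regions. In the distal regions of all 4 lists CAGCTG was in 18.8%, nearer to the 21.4% of the members than to all distal regions. The regions of all 4 lists were richer in GC, with a mean of 55.1% against 48.5% in the members. AP-1 letters were in 57.6% of the non-SMC-only regions, TEAD letters in 19.3% and RUNX letters in 31.9%. FOX letters were in 5.89% and SOX letters in 28.7% of them, both close to all distal regions. NFI letters, with 16.4%, stood near the members. Among the 1669 SMC-only distal regions of denser bins the shares were 32.9% for CAGGTG, 21.5% for CAGCTG, 40.8% for SOX, 14.4% for FOX and 5.51% for AP-1 and stood nearer to the scattered members than to all distal regions in each case.

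The short words that set the members apart held the same letters. They were counted in the same windows, and the motifs were chosen with earlier results of these data known. The words are therefore no independent evidence for the motifs. Of the 6-base words, each counted with its reverse complement, the 10 with the largest difference in share between members and all distal regions began with CACCTG, the other strand of CAGGTG, at 31.2% against 17%. CAAACA followed with 31.9% and 18.8%, AACAAA with 27.1% and 16.8%, TAAACA with 22.7% and 13%, and ACAAAG with 26.6% and 17.1%. ACAATG came next with 22.3% and 12.9%, then AAACAA with 26.3% and 17.2%, GCAAAC with 18.9% and 10.4%, ACCTGC with 21.1% and 12.8%, and last CAGCTG with 21.4% and 13.7%. The letters AAAC, part of the FOX motif read on its other strand, were shared by 4 of the 10 words. The SOX letters were 2 of them, and ACCTGC overlaps CACCTG by 5 letters. The lowest differences were those of GACTCA, with 11% against 18.9%, and GAGTCA, with 12.6% against 20.2%, both part of the AP-1 letters.

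Base composition differed little between the members, all distal regions and the non-SMC-only regions. The mean GC content of the windows was 48.5%, 48.2% and 46.9% in this order, and 55.1% in the distal regions of all 4 lists. The share of all distal regions with CAGCTG went from 5.55% below 40% GC to 22.2% at 55% or more. The members stood above all distal regions for both E-boxes, SOX, FOX and NFI, and under them for AP-1, in each of 5 bands of GC content. In windows with 45% to 50% GC, 33.0% of 3289 members and 16.1% of all distal regions held CAGGTG, 46.9% and 28.7% held SOX letters, 16.5% and 5.93% held FOX letters, and 7.94% and 16.0% held AP-1 letters. Repeats, read from the soft-masked bases of the assembly, took a mean of 10.3% of the member windows, 17.5% of all distal windows and 7.12% of the distal regions listed in all 4 libraries.

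The differences were spread over the genome. The share of members with CAGGTG ran from 23.2% on chromosome X to 35.6% on chromosome 7, with a median of 31.8%, and was above that of all distal regions of the same chromosome on 20 of 20 chromosomes. SOX letters ran from 37.4% on chromosome 5 to 48.2% on chromosome X, FOX letters from 12% on chromosome 7 to 19% on chromosome 10 and CAGCTG from 18% on chromosome 19 to 23.8% on chromosome 12, each above all distal regions on all 20. AP-1 letters ran from 5.34% to 9.63% and were below all distal regions on every chromosome. Chromosomes share their libraries, so these counts show the spread along the genome and not replication.

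**Figure D2:**
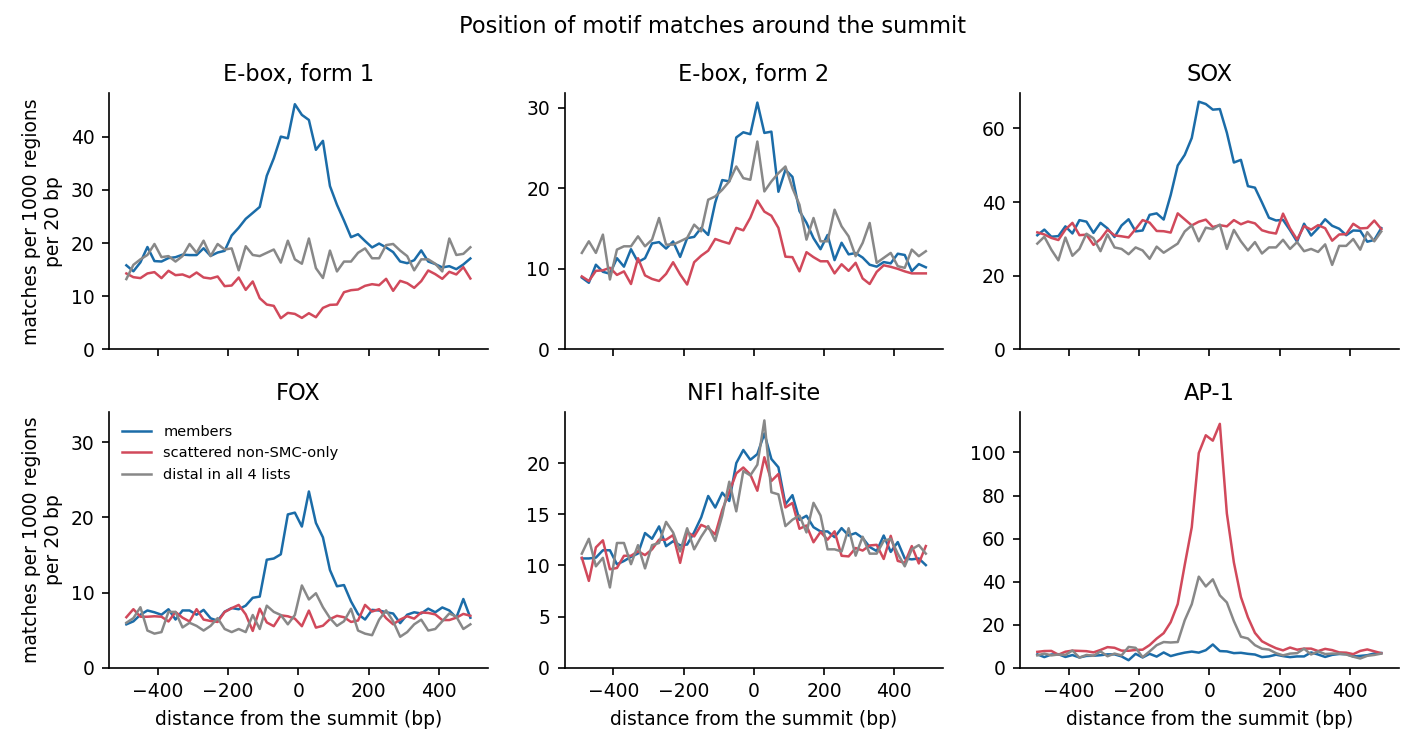
Motif matches per 1000 regions per 20 bp (vertical axis, from 0) against the distance from the summit in bp for the members, the scattered non-SMC-only distal regions and the distal regions in all 4 lists (E-box form 1 is CAGGTG and form 2 is CAGCTG). In the members both E-boxes, SOX, FOX and NFI rose towards the summit with ratios of centre to flank from 1.95 (NFI) to 2.89 (FOX), and AP-1 with 1.43.

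The matches lay at the summits. Within 40 bp of the summit the members held 43.3 CAGGTG matches per 1000 regions per 20 bp, 2.68 times the 16.2 of the flanks at 400 to 500 bp. The ratio of centre to flank was 2.75 for CAGCTG, 2.11 for SOX, 2.89 for FOX and 1.95 for NFI, and for AP-1 it was 1.43. In the non-SMC-only regions CAGGTG was rarer at the summit than in the flanks, with a ratio of 0.466, and the ratio was 1.06 for SOX, 0.965 for FOX and 14.4 for AP-1. CAGCTG rose at the summit in each class, with ratios of 1.755 in the non-SMC-only regions and 1.877 in the distal regions of all 4 lists. The flanks of members and non-SMC-only regions held 31.4 and 32.3 SOX matches and 7.21 and 6.87 FOX matches per 1000 regions per 20 bp, and differed more for CAGGTG, with 16.2 and 14.1, and AP-1, with 5.93 and 7.40. NFI rose at the summit in each class, with ratios of 1.77 in the non-SMC-only regions and 1.90 in the distal regions of all 4 lists.

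Windows with more than 1 of these motifs were more frequent among the members than among all distal regions. Each single share was higher in the members too. Whether the motifs met more often than their single shares give was not tested. At least 1 of the E-boxes CAGGTG and CAGCTG was in 5696 members (45.7%), against 28.2% of all distal regions and 19.2% of the non-SMC-only regions. An E-box together with SOX letters was in 2329 members (18.7%) and in 7.36% of all distal regions, and an E-box together with FOX letters in 811 (6.51%) and 1.74%. SOX and FOX letters together were in 973 members (7.81%) and 2.27%. All 3 kinds were in 372 members (2.99%) and in 0.587% of all distal regions. None of the 3 was in 3219 members (25.8%), against 48.4% of all distal regions and 53.7% of the non-SMC-only regions. AP-1 letters without any of the 3 were in 216 members (1.73%), and in 30.9% of the non-SMC-only regions.

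Few reads stood behind most members, although they ranked above the middle of their lists. A peak's deposited fold enrichment sets its summit against the local background within its own library, and with the p-value it gave back the number of reads at the summit. In SMC line 1 the fold enrichment of the members had a lowest value of 1.76, a median of 4.18 and a highest of 21.0, and the summit held 3 to 277 reads with a median of 6. In SMC line 2 the fold enrichment ran from 1.54 through a median of 4.57 to 22.2, and the summit held 5 to 311 reads with a median of 13. The folds belong to libraries of different depth and were compared by rank within their own list. The median percentile of the members was 72.4 in the list of SMC line 1 and 82.2 in that of SMC line 2. A q-value under 0.05 was reached in both lines by 7328 members (58.8%) and in neither by 1657 (13.3%), and a -log10 q of at least 5 in both by 2659 (21.3%).

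**Figure D3:**
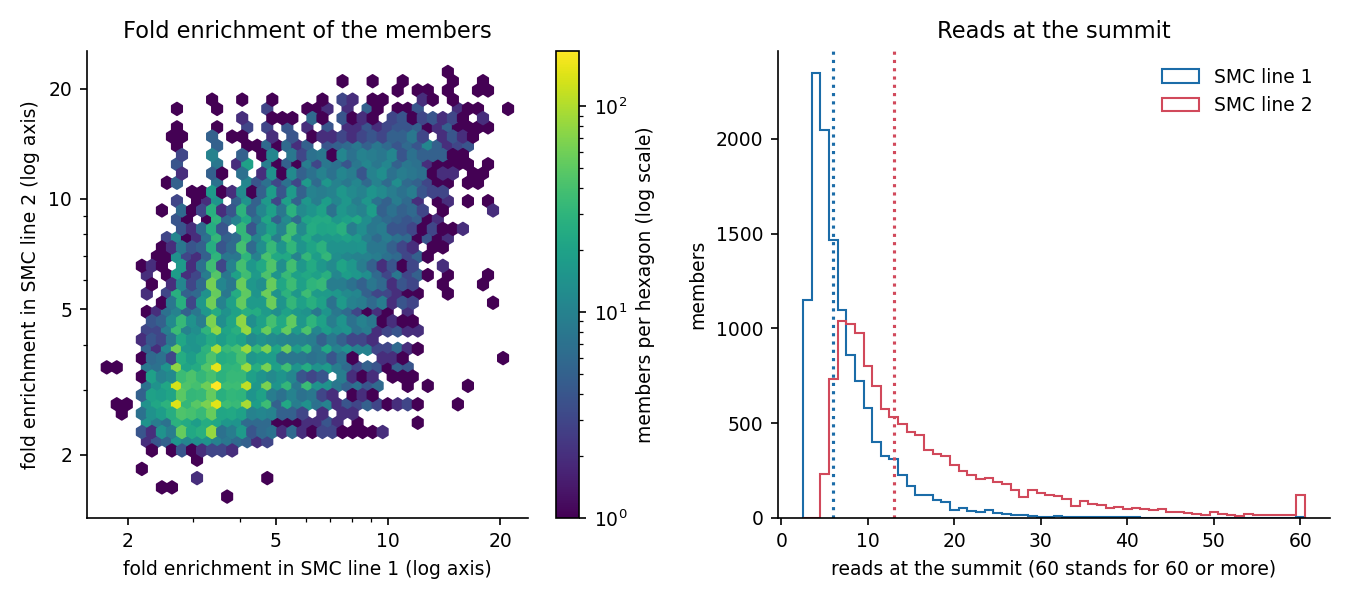
Left, fold enrichment of the 12459 members in SMC line 1 and SMC line 2 on log axes, coloured by the number of members per hexagon on a log scale. Right, number of members by reads at the summit in each line, with the highest values joined in the last step and dotted lines at the medians of 6 (SMC line 1) and 13 (SMC line 2).

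Both lines ranked the members alike in part. Across the members the fold enrichment of SMC line 1 and SMC line 2 had a Spearman rho of 0.558, and their log2 values a Pearson r of 0.573, over regions that share the 2 libraries and that all had to be listed in both. The plot of fold enrichment in both lines shows vertical stripes at low folds of SMC line 1, where few reads allow few values. The summits of both lines lay a median of 55 bp apart, and 9050 members (72.6%) had them within 100 bp. The median width of a member was 369 bp. In the bins of 3, just inside the limit, the median fold enrichment was 4.18 in SMC line 1 and 4.45 in SMC line 2 over 2340 regions, and in the bins of 4, just outside it, 4.12 and 4.40 over 1040 regions. Members 3 to 4 kb from a TSS had medians of 3.70 and 3.85 (196 regions), and SMC-only regions 2 to 3 kb from it 3.57 and 3.77 (241 regions).

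The absence of a non-SMC peak rests on the depth of the non-SMC libraries. The reads at the summit in the deep SMC line 2 were at or under 5, the lowest listed by the similarly deep non-SMC line 1 at its lowest background, in 230 members (1.85%). In the shallow SMC line 1 they were at or under 3, the lowest of non-SMC line 2, in 1150 members (9.23%). More than 10 reads in SMC line 2 were found at 7656 members, and more than 6 in SMC line 1 at 5452 (43.8%), so that over 50% of members had 3 to 6 reads in the shallow line. The nearest non-SMC peak lay a median of 3530 bp away, and under 200 bp away for 606 members (4.86%). A local background of at least 5 times the lowest of its list was found at 53 members (0.425%), of which 29 were on chromosome 4 and 12 on chromosome 2. The highest value, 277 reads in SMC line 1 near Nfia, was among them.

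The strongest members held more SOX and FOX letters than the weakest. The members were split into 4 groups of 3072 to 3158 by their mean percentile of fold enrichment. From the weakest to the strongest group the share with SOX letters was 29.1%, 40.7%, 47.7% and 53.8%, and that with FOX letters 6.94%, 14.6%, 19.4% and 22.1%. The weakest group thus stood near all distal regions in both, with 27.7% and 6.47%. CAGGTG went from 27.1% to 33.6% and CAGCTG from 18% to 23.9%, and CAGGTG was above all distal regions already in the weakest group. AP-1 letters went from 5.04% to 8.64%, RUNX letters from 17.5% to 14.4% and the CTCF motif from 1.39% to 0.289%. The median number of reads at the summit was 4 and 8 in the weakest group (SMC lines 1 and 2) and 11 and 25 in the strongest.

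**Figure D4:**
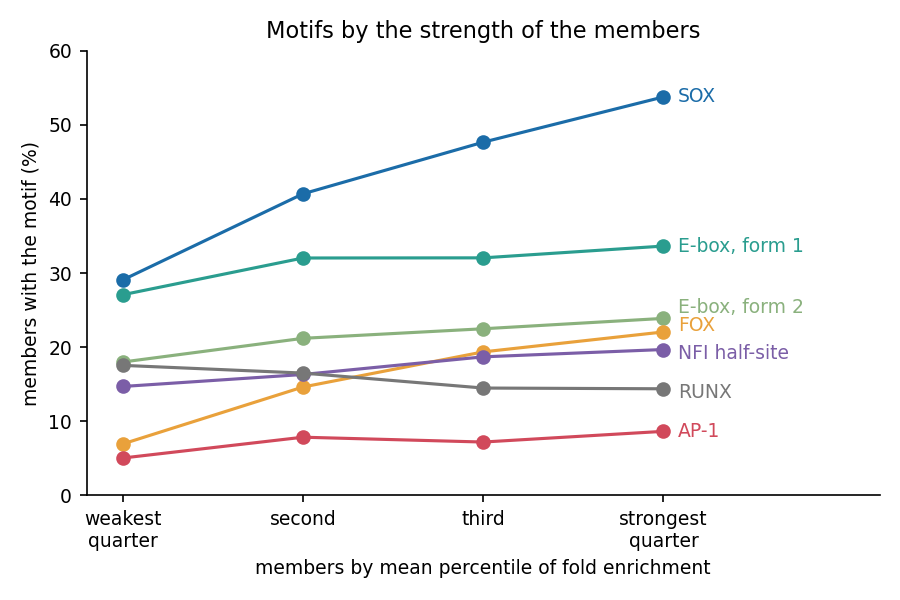
Share of members (%, from 0) with each motif in 4 groups of members ordered from the weakest to the strongest by mean percentile of fold enrichment in both SMC lists (E-box form 1 is CAGGTG and form 2 is CAGCTG). SOX went from 29.1% to 53.8% and FOX from 6.94% to 22.1%.

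Counted in each library over all its distal peaks, which include the members and were used for the rule, the motifs followed the cell type in both line pairs for the E-boxes, SOX, FOX and AP-1. CAGGTG was in 22.0% and 21.8% of the distal peaks of the SMC lines and in 11.8% and 12.1% of those of the non-SMC lines, with means of 21.9% ± 0.104 and 12% ± 0.179 (SD, n = 2). SOX letters were in 30.3% and 29.1% against 26.7% and 26.2%, FOX letters in 7.23% and 8.47% against 5.00% and 5.87%, and CAGCTG in 16.7% and 15.2% against 13.7% and 12.8%. AP-1 letters were in 7.50% and 7.62% against 32.1% and 24.4%. Values of the cell types did not overlap in any of these, which is a description of the lists that chose the members. Of the other motifs searched, the E-box CACGTG, the NFI palindrome and the NKX2, TEAD, RUNX and ETS letters did not overlap either. For NKX2 the values of SMC line 1 and non-SMC line 2 were nearly equal, with 5.266% and 5.263%. Of all ways to label 4 libraries as 2 against 2, a share of 0.333 gives values without overlap in either direction. CAGATG and the NFI, homeobox, POU octamer, GATA and CTCF letters overlapped. CACGTG was in 3.29% of members and 3.25% of all distal regions, so values without overlap need not set the members apart. Among distal regions listed in only 1 library, CAGGTG was in 19.9% of 43016 regions of SMC line 1 and 20.8% of 95174 of SMC line 2. The members, with 31.2%, stood above these for CAGGTG. AP-1 letters were in 5.5% and 6.3% of the same regions, under the 7.17% of the members.

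The members lay inside genes about as often as all distal regions and farther from the nearest TSS. Their summits were in exons for 5.54%, in introns for 45.8% and outside protein-coding genes for 48.7%, against 5.67%, 45.6% and 48.8% of all distal regions. The distance to the nearest TSS ran from 3 kb through a median of 58.4 kb to 2391 kb, and 36.2% of members and 30.3% of all distal regions were more than 100 kb from it. This median was 47.1 kb for all distal regions and for the non-SMC-only regions and 29.2 kb for the distal regions of all 4 lists. It was 68.1 kb for the SMC-only regions of denser bins, so a long distance was not particular to the members. By chromosome, members were between 2.60% of the distal regions on chromosome 11 and 5.81% on chromosome 10, and their density was 1.97 per Mb on chromosome X and 3.99 to 6.04 per Mb on the autosomes.

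The promoters nearest to the members were mostly open in all lines. The nearest gene had promoter peaks, within 3 kb of its TSS, in all 4 lists for 6984 members (56.1%), against 56.5% of all distal regions. A promoter that was itself SMC-only was nearest to 769 members (6.17%), against 4.46% of all distal regions and 3.10% of the non-SMC-only regions. A promoter that was non-SMC-only was nearest to 238 members (1.91%), against 2.68% and 3.04%. In the SMC-only regions of denser bins the shares with an SMC-only and a non-SMC-only promoter were 8.03% and 2.28%.

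By name, the 10 strongest members were nearest to Ndst4, Rassf9, Sgo2b, Arl15, C030005K15Rik, Acnat1, Nova1, Calb1, Xirp2 and Grb14. The Ndst4 region, chr3:125017160-125017729 as merged, lay 386.6 kb upstream of the TSS of Ndst4, a heparan sulfate sulfotransferase, with a fold enrichment of 18.3 and 20.7 and with 40 and 103 reads in SMC lines 1 and 2. The Sgo2b region, 492.1 kb downstream of the TSS, had 21.0 and 17.8, with 47 and 74 reads. The other 8 had fold enrichments of 15.1 to 18.4 in SMC line 1 and 16.4 to 20.6 in SMC line 2. Among them, the region near Nova1, a splicing factor of neurons, was 1254 kb from its TSS, that near Calb1, a calcium buffer of neurons and neuroendocrine cells, 272.7 kb, and that near Xirp2, an actin-binding protein of muscle, 4.49 kb. The nearest gene is a name for the place and is not shown to be the target. Of the 10, 9 held SOX letters, 4 held FOX letters and 3 held 1 of the E-boxes or both. AP-1 letters were in the regions near Rassf9, Sgo2b and Xirp2. Over all members the shares were 42.8% for SOX, 15.7% for FOX, 45.7% for either E-box and 7.17% for AP-1.

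Several of the genes nearest to the most members act in neuronal wiring and adhesion. At least 1 member was nearest to 6068 of 21755 protein-coding genes (27.9%), and 61 genes had 10 or more. Tenm4, a teneurin of neuronal wiring, was nearest to 23 members of its 206 distal regions, Robo2, a receptor of axon guidance, to 20 of 115, and Nrxn3, a presynaptic adhesion protein, to 15 of 105. Celf4, an RNA-binding protein of neurons, and the zinc finger gene Zfp608 had 15 each, of 199 and 210. Fam98a, Robo1, Dio2 (the deiodinase that activates thyroid hormone) and C8b (a complement protein) had 14 each and Pcdh9, a protocadherin, 13. As a share of the distal regions nearest to the gene these counts ran from 7.14% for Zfp608 to 17.4% for Robo2, against 3.87% for all genes, and the genes were chosen for their count of members. The mirrored non-SMC-only regions numbered 5 near Tenm4, 6 near Robo2, 1 near Nrxn3 and 0 near C8b, against 14 near Zfp608 and 10 near Celf4.

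Genes of neuronal adhesion and axon guidance had the most members of the lists examined. Of their 26 genes, 22 were nearest to a member, with 189 members of 2082 distal regions (9.08%). These are long genes, with a median of 78 distal regions a gene against 7 for all genes, so the share of distal regions is the measure to read. The non-SMC-only regions were 4.90% of the same distal regions, near the 4.94% of all genes. Nrxn3 held 14 of its 15 members within the gene, the strongest in an intron with fold enrichments of 14.2 and 15.5. Members exceeded non-SMC-only regions at 18 of the 26 genes and were fewer at 7, among all genes at 3469 and 5195. Robo1 had 14 members against 6 and Cadm2, a synaptic cell adhesion molecule, 12 against 7. Ncam1, the gene of a sorting marker of the SMC, had 4 against 7.

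**Figure D5:**
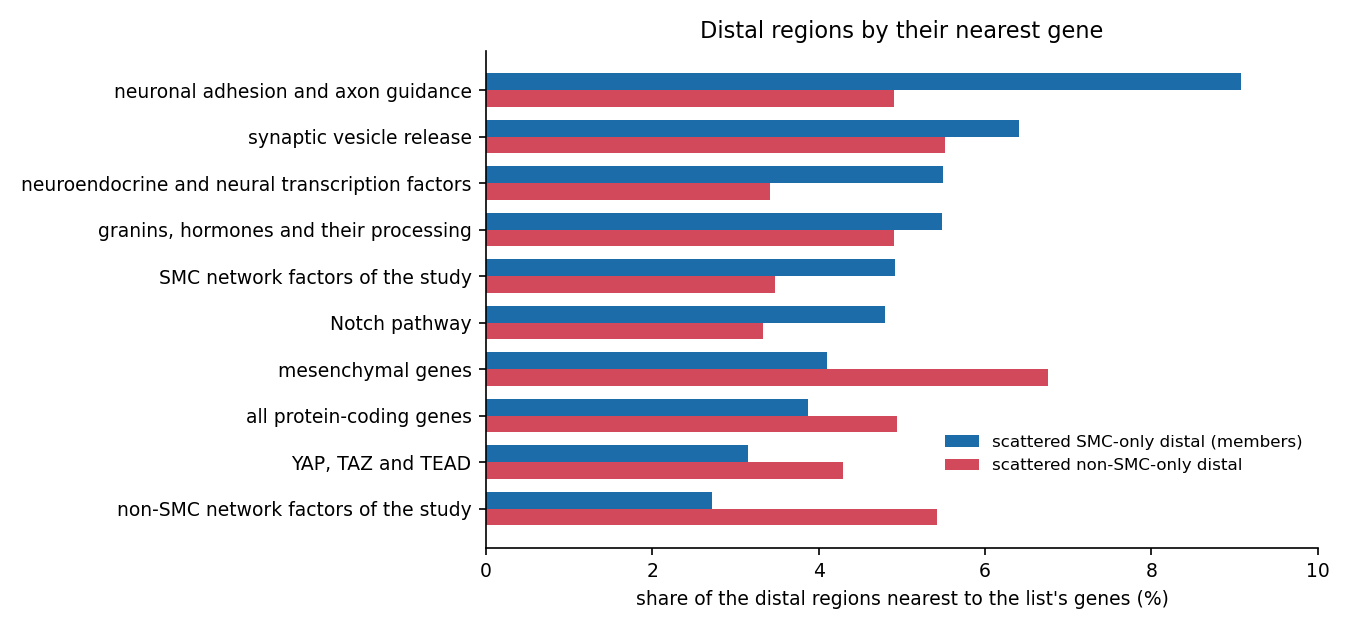
Members and scattered non-SMC-only distal regions as a share (%, bars from 0) of the distal regions nearest to the genes of each list, with all protein-coding genes for comparison. Members reached 9.08% for neuronal adhesion and axon guidance and 2.71% for the non-SMC network factors, against 3.87% for all genes.

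Synaptic vesicle release genes had 36 members of 562 distal regions (6.41%), at 11 of 19 genes, and 31 non-SMC-only regions (5.52%), against 3.87% and 4.94% for all genes. Members were more than non-SMC-only regions at 6 of these genes and fewer at 6. Cadps, a priming factor of dense core vesicles, and Sv2b, a vesicle protein, had 8 each, Syt1, the calcium sensor of release, 6 and Rab3c 5, with 5, 4, 3 and 6 non-SMC-only regions. The strongest Cadps region, in an intron, had fold enrichments of 14.7 and 14.8. Granins, hormones and their processing enzymes had 19 members of 347 distal regions (5.48%), at 9 of 15 genes, and the non-SMC-only share there was 4.90%. Pcsk1 and Pcsk2, the prohormone convertases, Pam, which amidates peptides, and Scg2, a granin, had 3 members each. The strongest region near Scg2 had fold enrichments of 15.5 and 14.3, with 27 and 60 reads, and that near Pcsk1 14.5 and 16.7, with 29 and 78 reads.

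Neuroendocrine and neural transcription factors had 82 members of 1493 distal regions (5.49%), at 19 of 28 genes (67.9%), and 51 non-SMC-only regions (3.42%). Among all genes 27.9% had a member, and members were 3.87% and non-SMC-only regions 4.94% of distal regions. These factor genes had a median of 31 distal regions a gene against 7 for all genes, so the share of distal regions is the measure to read. The share of genes with a member was also above 27.9% in the YAP, TAZ and TEAD list (53.8%) and the mesenchymal list (54.5%). Their medians were 25 and 30.5 distal regions a gene. Members exceeded non-SMC-only regions at 14 of the 28 factor genes and were fewer at 5. Among the latter were Sox2 (2 against 11), Isl1 (1 against 5) and Insm1 (0 against 5). Sox11 and Nfib had 10 each, and Tcf4, an E protein, and Sox4 had 9 each, with 3, 2, 8 and 4 non-SMC-only regions. The 10 members of Sox11 had 3 to 17 reads in SMC line 1 and 6 to 29 in SMC line 2, and 7 of them held CAGGTG or CAGCTG. Among the Sox11 members, only those 259.7 and 202.1 kb from the TSS held SOX letters, and only that at 106.6 kb held FOX letters. Of the 10 members of Nfib, 7 held SOX letters, 6 an E-box and 3 FOX letters. Over all members the shares were 45.7% for either E-box, 42.8% for SOX and 15.7% for FOX. Neurod1, Insm1 and Foxa1 were nearest to 0 members among their 13, 78 and 36 distal regions.

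The study's own 10 leading factors of the SMC network had 34 members of 692 distal regions (4.91%), at 8 of 10 genes, and its 10 leading non-SMC factors 14 of 516 (2.71%), at 5 of 10. These lists were chosen by the study on the same cells, so their direction is not independent evidence. Tcf4 and Sox4, given above, belong to the first, with Id4, an inhibitor of helix-loop-helix factors, at 5 members. Of the second, Myc had 4 members and 18 non-SMC-only regions among 222 distal regions, Ets2 and Hmgn3 had 3 members each and Tead1 2. Notch pathway genes had 23 members of 480 (4.79%) and 16 non-SMC-only regions (3.33%), against 3.87% and 4.94% for all genes, with 6 at the ligand gene Jag1, 5 at the effector Hes1 and 2 each at the ligand gene Dll1 and the effector Hey1. Non-SMC-only regions there numbered 6, 0, 2 and 0.

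Mesenchymal genes had 46 members of 1124 distal regions (4.09%), near the 3.87% of all genes, and 76 non-SMC-only regions (6.76%). Cdh2, the neuronal cadherin, had 11 members against 5 non-SMC-only regions, and Zeb2, a repressor of epithelial genes that is also active in neurons, 10 against 19. Runx1 had 5 against 4 and Fosl2, an AP-1 subunit, 4 against 3. Cd44, the gene of a sorting marker of the non-SMC, had 2 against 0. Genes of YAP, TAZ and TEAD had 11 members of 350 (3.14%), at 7 of 13 genes, with 3 at Ccn2, 2 each at Tead1 and Vgll3 and 1 at Amotl2. Yap1 and Wwtr1, the gene of TAZ, had 0 members among 18 and 22 distal regions.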

How the data were processed

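The measurement was ATAC-seq in 2 SMC and 2 non-SMC lines, grouped by the labels. According to the methods and the submitters' processing notes, the authors mapped paired-end reads to mm10 with Bowtie2 2.3.4, sorted them with samtools, removed duplicates with sambamba and called peaks in each library alone with MACS2 2.1.1. The settings of the peak calling, a shift of the reads and a filter on repeats are not given in the sources used here. In the deposited lists, fold enrichment is the ratio of summit pileup to local background within one library, and each summit also carries a -log10 p-value and a -log10 q-value. The authors kept peaks up to p = 0.01. The score that the authors deposited, -log10 p times 10 cut to a whole number, was not used.

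The members, the gene lists and the motifs were chosen with earlier results of these data known. Positions were set against GRCm38 and the 21755 protein-coding genes of GENCODE on 20 chromosomes, taking each gene's 5′ end for its TSS. Fold enrichment and p-value together gave back the pileup and the background, since MACS2 adds 1 to both before dividing and takes p from a Poisson distribution, and all but 1 or 2 peaks per list matched within 0.001 of the -log10 p. Read totals of the libraries were not analysed here, and depth was read from the lowest background alone. Motif searches covered either strand and reached 100 bp to each side of the region's strongest summit. Recovery, merging and motif counts were tested on simulated data. The named genes were the nearest to the 10 strongest members, the 10 with the most members and up to 4 per list. Those per list were led by the number of members. Further genes of the lists and those checked for the labels were named as values. They were Chga, Ncam1, Cd44, Vim, Scgb1a1, Ptprc, Sftpc, Foxj1, Pecam1, Cdh5, Pdgfra, Pdgfrb, Col1a1, Neurod1, Insm1, Foxa1, Sox2, Isl1, Yap1 and Wwtr1. The alternatives tried were a minimum -log10 q of 1.3 or 5, equally many top peaks from each list, a reciprocal overlap of 50%, autosomes only, the TSS of every transcript, more than 10 kb from a TSS, 1 member per bin, no limit per bin, each library left out, line pairs, windows of 50 or 250 bp on each side and the summit of either SMC line. The -log10 q of 5, and all alternatives for CAGGTG and FOX, were chosen after seeing the data. One gene that the rule would name is not reported here. The work used bedtools 2.31.1 and Python 3.11.15, with matplotlib 3.10.9, pandas 2.3.3, scipy 1.17.1 and numpy 2.4.6.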

Additional observations from a re-analysis of the deposited data

Results flagged for a closer look

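The NFI letters TTGGCA were a little more frequent among distal peaks of SMC line 1 than of non-SMC line 1, by 1.16 percentage points, and less frequent in SMC line 2 than in non-SMC line 2, with a difference of -0.84. Whether the line pairs differ was not tested. The share was 15.3% and 12.5% in SMC lines 1 and 2 and 14.2% and 13.4% in non-SMC lines 1 and 2, so that the SMC lines differed more from each other than either differed from its pair. Among the members, 17.3% held these letters.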

How the results depend on the processing

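Members stood above all distal regions for CAGGTG, SOX, FOX and NFI, and under them for AP-1, in 15 of 15 settings that gave both shares. CAGCTG was above in 14 and under in 1, and the share in gene bodies was above in 6 and under in 7, so it has no settled side. Leaving out 1 library in turn gave 13415 to 20618 members, the highest without SMC line 2, and 37.4% to 51.4% in gene bodies. It gave 19.8% to 30.7% for CAGGTG (19.8% without SMC line 1 and 20.4% without SMC line 2), 13.2% to 21.6% for CAGCTG (13.2% without SMC line 1, the setting under all distal regions), 34.3% to 42.0% for SOX, 9.45% to 15.5% for FOX (9.45% without SMC line 2), 13.3% to 17.4% for NFI and 6.47% to 7.87% for AP-1. With 1 SMC list left, a single list chooses the members.

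The replicate block, the mean over lines of equal number, which are not stated to share a mouse, gave 40.5% in gene bodies, 20% for CAGGTG, 14.5% for CAGCTG, 34.5% for SOX, 11.2% for FOX and 14.8% for NFI. A -log10 q of at least 1.3 gave 33.2% for CAGGTG, 23.5% for CAGCTG, 47.9% for SOX, 18.3% for FOX, 18.6% for NFI and 7.65% for AP-1. A -log10 q of at least 5, chosen after seeing the data, left 3637 members, with 50.3% in gene bodies, 33.9% for CAGGTG, 25.5% for CAGCTG, 51.8% for SOX, 20.6% for FOX, 20.6% for NFI and 9.13% for AP-1. One member per bin left 5621, with 48.6% in gene bodies, 29.6% for CAGGTG, 20.6% for CAGCTG and 16.6% for FOX. The same number of top peaks gave 32.2% for CAGGTG, 44.7% for SOX and 16.9% for FOX. A reciprocal overlap of 50% gave 52.2% in gene bodies, 22.4% for CAGCTG, 44.4% for SOX, 18.4% for NFI and 8.08% for AP-1. The TSS of every transcript gave 47.4% in gene bodies and 43.7% for SOX, and more than 10 kb from a TSS 50.3% in gene bodies. The summit of SMC line 1 gave 30.1% for CAGGTG and 14.9% for FOX. Windows of 50 bp on each side gave 18.3% for CAGGTG, 12.3% for CAGCTG, 26.7% for SOX, 9.16% for FOX, 9.54% for NFI and 3.91% for AP-1, and windows of 250 bp 49.2%, 36.3%, 65.5%, 25.2%, 32.7% and 14.6% in the same order, as fewer or more bases are searched. The cause of the other movements was not tested. All alternatives for CAGGTG and FOX were chosen after seeing the data. Few reads limit each single region, and a peak missing from a list is not a measured absence.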
